A study of Saccharomyces cerevisiae with 6 samples.

Results

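Budding yeast carrying a temperature-sensitive casein kinase 2 mutation (ck2ts) were compared with wild type (WT) after a shift to 39 °C, using 4 of the series' 6 RNA-seq libraries, 2 per group. Members were the libraries labelled ck2ts and WT. The other 2 libraries came from spt6-7SA, a mutant of the histone chaperone Spt6, and were used here to ask which changes of ck2ts were absent or opposite in that mutant. All strains were mat a in an S288C background with leu2D1, lys2-128d and bar1D. The ck2ts strain had a deletion of CKA1 (cka1 delta0::KanMX6) and an altered CKA2 (cka2D225N::NAT). The spt6-7SA strain had his3D200, ura3 delta0, bar1D::KanMX6, a deletion of SPT6 (spt6D::kanMX6), a FLAG-tagged 7S-A form of SPT6 on a centromeric URA3 plasmid, and a MYC-tagged IWS1 marked with HIS3. WT carried an insertion at ura3-52 of a histone construct with FLAG-HHT1 under a GAL1/10 promoter (HHF1-PGAL1/10-FLAG-HHT1, marked with URA3) and bar1D::NAT, both of which ck2ts also carried and spt6-7SA did not list. Cultures were grown in rich glucose medium at 30 °C to an OD600 of 0.5 and held at 39 °C for 2 h, so no group shows the state before the shift.

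Casein kinase 2 is a serine/threonine kinase with alternative catalytic subunits, Cka1 and Cka2, and regulatory subunits, Ckb1 and Ckb2. Yeast can live with either catalytic subunit alone, and the kinase has many substrates, among them Spt6, whose N-terminal region binds Iws1 (Spn1). Spt6 travels with RNA polymerase II and puts nucleosomes back behind it, and its loss is known for transcripts that start inside genes and on the opposite strand. Setting ck2ts beside spt6-7SA asks which changes of the kinase mutant also occur when Spt6 is altered.

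The altered residue of CKA2 is shown first because it defines the remaining catalytic subunit of ck2ts. The line below is the R64 reference sequence (RefSeq) of chrXV:442176-442238 on the plus strand, within the single exon of CKA2. Capitals mark codon 225, which reads aspartate in the reference, the residue named in D225N.

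CKA2 codon 225: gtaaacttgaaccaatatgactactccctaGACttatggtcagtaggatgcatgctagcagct

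Depth was 56307173 to 83375420 sense reads per library. Levels are given as CPM, the standard count unit scaled to library size, with TMM factors, from sense reads unless antisense is named. Genes were tested with edgeR by quasi-likelihood, and p-values were adjusted over all genes by the Benjamini-Hochberg method, with a threshold of 0.05. Whether the replicates were grown as separate cultures is not stated, and the spread behind each p-value is that between these libraries, which may be technical. RNA was taken from whole cultures, in which fewer cells of a kind and less RNA per cell cannot be told apart.

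CKA1 stood at 3.13 and 1.84 CPM in ck2ts, 49.5 and 56.5 CPM in spt6-7SA, and 61.9 and 60.5 CPM in WT. CKA2 stood at 69.5 and 58.5 CPM in ck2ts, 88.6 and 95.7 CPM in spt6-7SA, and 115 and 108 CPM in WT. Both ck2ts libraries lay below the other 4 at each gene. The marker gene LEU2 also set ck2ts apart, at 0.0155 and 0.0737 CPM in ck2ts, 47.5 and 48.9 CPM in spt6-7SA, and 46.3 and 55.1 CPM in WT, although the labels list leu2D1 for every strain. Most mitochondrially encoded RNAs were also close to 0 in ck2ts, as described further on. Both differences were present in each ck2ts library, so the effect of the kinase alleles and that of these differences cannot be told apart in any result that follows.

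Of 6778 genes tested, 2203 (32.5%) were higher and 2186 (32.3%) lower in ck2ts than in WT. At least a 2-fold change was seen in 926 (13.7%) upward and 785 (11.6%) downward. Between the mutants, 1673 genes (24.7%) were higher and 1880 (27.7%) lower in ck2ts than in spt6-7SA. In spt6-7SA, 1809 genes (26.7%) were higher and 1633 (24.1%) lower than in WT. These shares are the background for each count of genes below, and both mutants were set against the same WT libraries. A gene was counted as specific to ck2ts when it passed against WT and against spt6-7SA in the same direction, by at least 1.0 on the log2 scale each time, while its change in spt6-7SA stayed under 0.5. This rule took 128 genes (1.89%) higher in ck2ts and 160 (2.36%) lower. A gene was counted as opposite when it passed in both mutants in different directions and the mutants also differed from each other. That rule took 94 genes (1.39%) higher in ck2ts and 111 (1.64%) lower. The spt6-7SA strain also differed from WT in the markers and constructs listed at the start. Their effects and that of the SPT6 allele cannot be told apart in these classes.

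Because these rules use the contrasts themselves, the changes of their members are descriptions. The median log2 fold change against WT was 1.64 for the specific genes that were higher and -1.60 for those that were lower, against 0.02 over all genes tested. The same genes had medians of 0.13 and -0.10 in spt6-7SA. A small change in spt6-7SA could still pass the test, which 24 of the higher genes did (21 of them upward) and 43 of the lower genes (33 downward). Members of the higher class had a median WT level of 10.8 CPM, against 39.0 CPM over all genes, and those of the lower class 44.1 CPM. Of the 160 lower genes, 23 belong to the mitochondrial genome. In each class every member had both ck2ts libraries beyond the other 4. Just inside the rule for higher genes lay DGA1, with log2 fold changes of 1.05 in ck2ts and -0.11 in spt6-7SA, and just outside lay SAW1, with 0.99 and -0.14. On the side of spt6-7SA, DOC1 was just inside at -0.50, and YDR455C was just outside at 0.51. For lower genes, KTR5 was just inside at -1.01 in ck2ts and DMO2 just outside at -0.99, while ARO4 (-0.50 in spt6-7SA) and YPR078C (0.50) lay on either side of the other limit.

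Among protein-coding genes of at least 10 CPM, the largest specific rises included single genes of the cell surface, kinetochore, peroxisome and meiosis. Genes were named only where both ck2ts libraries lay beyond all the others, so that separation is by selection. PRY1 (chromosome X, 289875 to 290774, minus strand) encodes a secreted sterol- and fatty acid-binding protein. It stood at 341 and 299 CPM in ck2ts, 43.4 and 35.0 CPM in spt6-7SA, and 36.1 and 24.8 CPM in WT. The log2 fold change against WT was 3.39 (SE 0.21, adjusted p = 2.65e-05), a 10.5-fold rise. Both ck2ts libraries were far above the other 4, which overlapped. UBX6, for a partner of the segregase Cdc48, had 165 and 177 CPM in ck2ts, 21.7 and 23.6 CPM in spt6-7SA, and 16.9 and 19.1 CPM in WT. CTF3, for a kinetochore protein, had 362 and 332 CPM in ck2ts, 39.8 and 46.1 CPM in spt6-7SA, and 36.1 and 42.0 CPM in WT. The log2 fold changes of these genes were 3.25 and 3.15. UBX6 also rose in spt6-7SA, by 0.33 (adjusted p = 0.0242). OCH1, for the Golgi mannosyltransferase that starts outer chains on N-glycans, had 491 and 576 CPM in ck2ts, 114 and 119.5 CPM in spt6-7SA, and 105 and 107 CPM in WT. Its rise of 2.33 on the log2 scale had no counterpart in spt6-7SA, where the change was 0.14. FMP16 changed by 3.15, YOR385W by 2.63, ISF1 by 2.60 and YSP3, for a predicted subtilisin-like protease, by 2.21 in ck2ts, and none passed in spt6-7SA.

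For PRY1 and CTF3 the reads of the 5′ and 3′ parts of the gene, counted separately in the deposited tables, rose alike. Fold changes of ck2ts over WT were 11.1 in the 5′ part and 9.70 in the 3′ part of PRY1, and 10.98 and 7.98 in those of CTF3. HOP1, which encodes a protein of the meiotic chromosome axis, did not follow this. Its 5′ part had 13 and 11 reads in ck2ts, 11 and 9 in spt6-7SA, and 13 and 7 in WT. Its 3′ part had 575 and 437 reads in ck2ts, 110 and 103 in spt6-7SA, and 118 and 111 in WT. The 5′ counts of the 3 strains overlapped, whereas both ck2ts libraries had several times the 3′ reads of every other library. How far each part extends is not given in the sources used here, and these part counts were not tested.

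**Figure D1:**
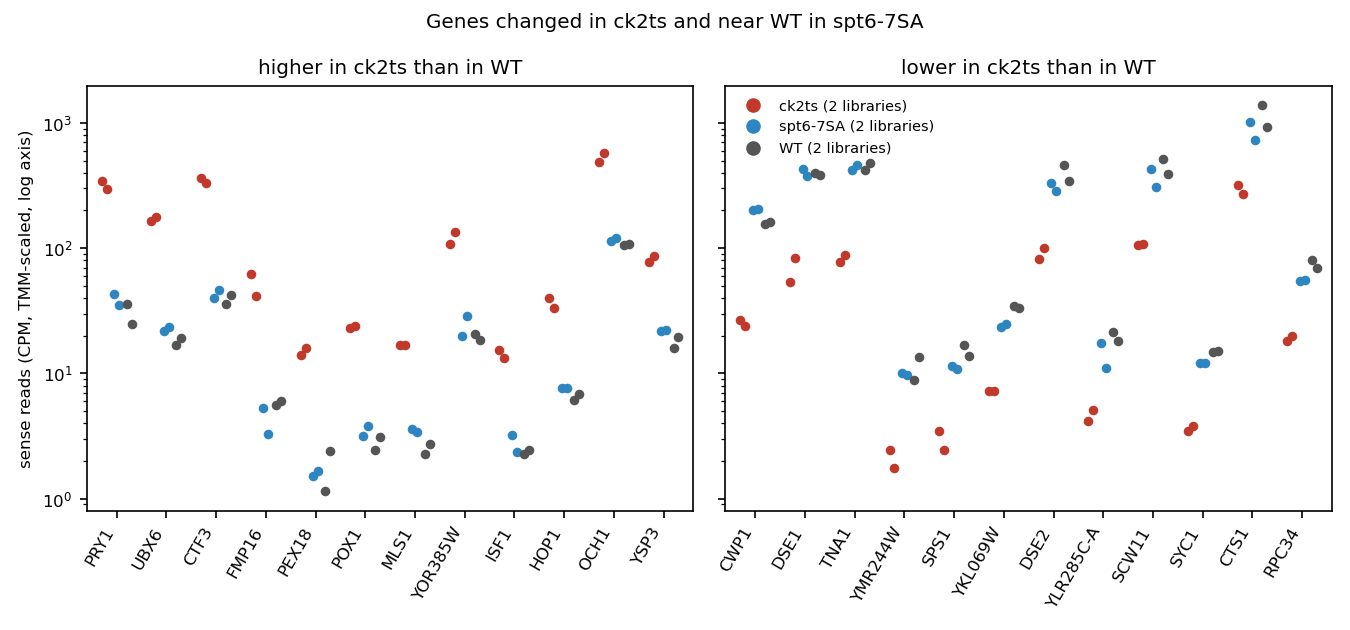
Sense reads of the protein-coding genes of at least 10 CPM with the largest changes specific to ck2ts, leaving out LEU2, CKA1 and mitochondrial genes. Values are TMM-scaled CPM on a log axis, with 1 point for each library and genes higher in ck2ts in the left panel. Genes were drawn only if both ck2ts libraries lay beyond all the others, so the ck2ts points stand apart by selection. At PRY1 they are at 341 and 299 CPM, where WT had 36.1 and 24.8 CPM.

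LEU2, CKA1 and 23 mitochondrial genes were among the specific falls and are described apart from the rest. Among the other protein-coding genes of at least 10 CPM, the falls of CWP1 and DSE1 were the largest. As for the rises, the naming required both ck2ts libraries to lie beyond all the others. CWP1 (chromosome XI, 261132 to 261851, plus strand), for a cell wall mannoprotein, stood at 26.4 and 24.0 CPM in ck2ts, 200.2 and 204 CPM in spt6-7SA, and 156 and 161 CPM in WT. On the log2 scale its fall was -2.65 in ck2ts (SE 0.09, adjusted p = 4.31e-06) and its rise 0.35 in spt6-7SA (adjusted p = 0.0118), so it belonged to the specific and the opposite genes. DSE1 (chromosome V, 407342 to 409063, minus strand), expressed in daughter cells, had 53.6 and 83.9 CPM in ck2ts, 430.1 and 375 CPM in spt6-7SA, and 397 and 385 CPM in WT. Its libraries of spt6-7SA and WT overlapped, and both ck2ts libraries were several times lower. TNA1, for the nicotinic acid permease, had 76.9 and 88.3 CPM in ck2ts, 421 and 458 CPM in spt6-7SA, and 419 and 479.5 CPM in WT. It overlaps an annotated gene on the other strand, as do CTS1 and RPC34. SPS1, a sporulation kinase gene, fell by 2.38, YMR244W by 2.40, YKL069W, for a methionine-R-sulfoxide reductase, by 2.21, and SYC1, for a factor of mRNA 3′ end processing, by 2.04. The change of YKL069W in spt6-7SA, -0.48, also passed (adjusted p = 0.00325).

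Daughter-cell separation genes, some of whose products digest the septum from the daughter's side, were mostly lower in ck2ts than in WT. Of 15 genes tested, 10 fell, 3 rose and 2 did not pass in ck2ts, and the median was -1.21 (log2 fold change). The counts in spt6-7SA were 3 lower, 4 higher and 8 uncalled, and the median was -0.26. The specific class held 6 of them, namely CTS1, DSE1, DSE2, SCW11, EGT2 and PRY3. CTS1, the endochitinase gene, had 319 and 271 CPM in ck2ts, 1020.0 and 729 CPM in spt6-7SA, and 1383 and 931 CPM in WT. SCW11, for a glucanase-like wall protein, had 106 and 109 CPM in ck2ts, 429.8 and 309.6 CPM in spt6-7SA, and 519.6 and 394 CPM in WT. DSE2 had 82.4 and 100.4 CPM in ck2ts, 334 and 285 CPM in spt6-7SA, and 464 and 343 CPM in WT. At these 3 genes WT and spt6-7SA spread widely and approached or overlapped each other, and ck2ts stayed below both. DSE4, an endoglucanase gene, was opposite, at 132 and 163 CPM in ck2ts, 517 and 464 CPM in spt6-7SA, and 303 and 378 CPM in WT. The risers in ck2ts were PST1, CHS1 and ASH1, with log2 fold changes of 1.70, 1.51 and 1.31, and all 3 also rose in spt6-7SA. ASH1 encodes a daughter-cell repressor and CHS1 a chitin synthase that repairs the wall during separation.

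G1 cyclins, which drive entry into the cycle, rose in ck2ts. Of 23 G1 and G1/S genes tested, 13 were higher, 4 lower and 6 uncalled in ck2ts, and 5 higher, 3 lower and 15 uncalled in spt6-7SA. The medians were 0.31 and 0.15. The cyclin genes CLN1, CLN2 and PCL1 and the repressor gene YOX1 were specific to ck2ts. CLN2 had 374 and 438 CPM in ck2ts, 156 and 141 CPM in spt6-7SA, and 147 and 165 CPM in WT, where both other strains overlapped. CLN1 had 169.7 and 196 CPM in ck2ts, 73.0 and 65.0 CPM in spt6-7SA, and 51.2 and 50.5 CPM in WT, and also rose in spt6-7SA, by 0.44 (adjusted p = 0.0108). GIN4, a bud neck kinase gene, rose by 0.40 in ck2ts and fell by 0.33 in spt6-7SA.

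Several mating genes moved in opposite directions in the mutants. Of 22 haploid and pheromone response genes, 9 were lower, 5 higher and 8 uncalled in ck2ts, against 1 fall, 11 rises and 10 others in spt6-7SA. STE12, for the transcription factor of the pathway, was a specific fall at 50.5 and 47.1 CPM in ck2ts, 121 and 110.4 CPM in spt6-7SA, and 139 and 120.5 CPM in WT. FUS3, for its kinase, had 17.6 and 16.8 CPM in ck2ts, 67.9 and 61.2 CPM in spt6-7SA, and 51.8 and 46.4 CPM in WT, with no overlap between any of the 3 strains. FIG1, KAR4 and SST2 were opposite in the same way, falling by 1.25, 0.91 and 0.47 in ck2ts and rising by 1.75, 0.50 and 0.45 in spt6-7SA. The fall of SST2 lost its call without WT replicate 1 and without ck2ts replicate 2. The a-cell genes, which mark the labelled mating type, were detected in all libraries. Of 6, 5 fell and 1 rose in ck2ts, and 3 rose and none fell in spt6-7SA. STE2, the receptor for alpha-factor, had 96.9 and 105 CPM in ck2ts, 354 and 340.5 CPM in spt6-7SA, and 202 and 156 CPM in WT. STE2 held its call with each library left out, but MFA1, MFA2, STE6 and AGA2 did not, and of the 5 falls 1 passed without WT replicate 1, 4 without WT replicate 2, 2 without either ck2ts library and 3 without either spt6-7SA library. The alpha-cell genes, which are normally not expressed in a-cells, all rose in both mutants, 4 of 4. In WT, SAG1 already stood at 29.7 and 24.3 CPM and STE3 at 11.9 and 14.2 CPM, while MF(ALPHA)1 was at 1.03 and 1.05 CPM. The largest change was at MF(ALPHA)2, with 3.67 and 2.71 CPM in ck2ts, 0.722 and 0.777 CPM in spt6-7SA, and 0.311 and 0.311 CPM in WT.

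Most phosphate genes fell in ck2ts, and some of these falls were absent from spt6-7SA. Of 25 tested, 16 were lower, 4 higher and 5 uncalled in ck2ts, and 12 lower, 7 higher and 6 uncalled in spt6-7SA, with medians of -0.69 and -0.12. The acid phosphatase genes PHO5, PHO11 and PHO12 and the low-affinity transporter gene PHO90 were specific to ck2ts. PHO90 had 93.1 and 84.7 CPM in ck2ts, 221 and 222 CPM in spt6-7SA, and 247 and 237 CPM in WT. PHO11 had 28.2 and 30.1 CPM in ck2ts, 156 and 142 CPM in spt6-7SA, and 118 and 103 CPM in WT, so that it fell in one mutant and rose by 0.43 in the other. PHO12 is a near-identical copy of PHO11 that can share its reads, and its values are not separate evidence. PHO89, for a sodium-coupled phosphate transporter, was lower still in spt6-7SA, at 36.5 and 24.8 CPM in ck2ts, 6.66 and 5.26 CPM in spt6-7SA, and 232 and 160.5 CPM in WT. SPL2 and PHM6, which respond to phosphate starvation, fell in both mutants, by 3.65 and 3.58 in ck2ts and by 2.23 and 1.63 in spt6-7SA. PHM7 rose, by 3.17 and 1.52.

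Windows of 300 bases, starting 400 bases before the start codons of SPL2 and PHM6, are shown for these members with the largest falls, chrVIII:375201-375500 (minus) and chrIV:1022422-1022721 (minus) in R64 (RefSeq). Capitals mark CACGTG, a site of the phosphate factor Pho4.

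SPL2 upstream: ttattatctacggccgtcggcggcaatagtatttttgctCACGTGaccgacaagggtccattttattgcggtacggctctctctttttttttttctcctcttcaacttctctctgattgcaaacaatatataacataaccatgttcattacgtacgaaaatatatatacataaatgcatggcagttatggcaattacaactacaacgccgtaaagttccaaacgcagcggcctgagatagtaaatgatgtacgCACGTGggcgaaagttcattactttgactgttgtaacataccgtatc

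PHM6 upstream: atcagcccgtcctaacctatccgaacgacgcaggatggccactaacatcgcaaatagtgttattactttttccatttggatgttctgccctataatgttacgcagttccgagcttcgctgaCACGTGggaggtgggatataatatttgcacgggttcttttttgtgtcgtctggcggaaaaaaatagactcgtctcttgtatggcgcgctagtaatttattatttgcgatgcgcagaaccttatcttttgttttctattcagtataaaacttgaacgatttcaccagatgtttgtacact

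CACGTG or CACGTT, on either strand, was in 18 of the 25 phosphate windows (72.0%) and in 13.8% of 5987 windows of the same length and placement before protein-coding genes.

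Most iron genes fell in ck2ts. Of 25 tested, 17 were lower, 3 higher and 5 uncalled in ck2ts, and 6 lower, 3 higher and 16 uncalled in spt6-7SA, with medians of -0.88 and -0.18. The siderophore transporter genes ARN1 and SIT1 and the reductase-like gene FRE5 were specific. SIT1 had 112 and 77.6 CPM in ck2ts, 428 and 425 CPM in spt6-7SA, and 356 and 365 CPM in WT, with ck2ts far below. FET3, the iron oxidase gene, had 508 and 307 CPM in ck2ts, 1218 and 1213 CPM in spt6-7SA, and 1905 and 1610.0 CPM in WT. The permease gene FTR1 fell by 2.15 in ck2ts, against a fall by 0.65 in spt6-7SA. SMF3, a vacuolar iron transporter gene, was opposite, but its fall by 0.24 lost its call with 5 of the 6 libraries left out in turn.

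Genes for using fatty acids and acetate rose, with several rises specific to ck2ts. Of 17 genes of peroxisomal fatty acid oxidation, 12 were higher, 2 lower and 3 uncalled in ck2ts (median 1.15), and 11 rose and none fell in spt6-7SA (median 0.42). POX1, for the acyl-CoA oxidase of the first step, had 22.9 and 23.9 CPM in ck2ts, 3.17 and 3.77 CPM in spt6-7SA, and 2.44 and 3.11 CPM in WT. It rose by 3.08 in ck2ts, and its change of 0.33 in spt6-7SA did not pass. PXA1, for a subunit of the peroxisomal fatty acid transporter, TES1, a thioesterase gene, and CTA1, for peroxisomal catalase, were also specific, with rises of 1.55, 1.27 and 1.75. PEX18, which helps import peroxisomal matrix proteins and is outside the list, had 14.1 and 16.1 CPM in ck2ts, 1.504 and 1.66 CPM in spt6-7SA, and 1.15 and 2.38 CPM in WT. Of 21 genes of the glyoxylate cycle and gluconeogenesis, 16 were higher, 2 lower and 3 uncalled in ck2ts, and 12 higher and 2 lower in spt6-7SA. MLS1, malate synthase, had 16.9 and 16.8 CPM in ck2ts, 3.58 and 3.39 CPM in spt6-7SA, and 2.27 and 2.73 CPM in WT. MLS1 also rose in spt6-7SA, by 0.49 (adjusted p = 0.0280). ICL1, which acts beside it in the glyoxylate cycle, did not pass, at 19.3 and 14.3 CPM in ck2ts, 25.0 and 23.2 CPM in spt6-7SA, and 20.6 and 20.6 CPM in WT. PCK1, for the gluconeogenic carboxykinase, and JEN1, a lactate transporter gene, were specific with rises of 1.40 and 1.82. The hexose transporter genes HXT6 and HXT7 were also specific, at 1.93 and 2.04, and as near-identical copies they can share reads.

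Most oxidant defence and vacuolar hydrolase genes rose in ck2ts, with little change at the median in spt6-7SA. Of 27 oxidant defence genes, 19 were higher, 4 lower and 4 uncalled in ck2ts, against 10 rises and 8 falls in spt6-7SA, with medians of 1.05 and 0.10. GPX1, a glutathione peroxidase gene, and CTA1 were specific, and TSA2, GPX2 and TRX2 were opposite. GPX1 had 27.2 and 24.4 CPM in ck2ts, 5.04 and 4.95 CPM in spt6-7SA, and 5.31 and 6.38 CPM in WT. Of 15 vacuolar hydrolase genes, 11 were higher, 1 lower and 3 uncalled in ck2ts, against 6 rises and 2 falls in spt6-7SA, with medians of 1.34 and 0.25. AMS1, vacuolar mannosidase, had 303 and 301 CPM in ck2ts, 75.9 and 77.5 CPM in spt6-7SA, and 63.1 and 88.5 CPM in WT, where the last 2 strains overlapped. PBI2, an inhibitor of vacuolar proteinase B, was opposite, with 0.72 in ck2ts and -0.32 in spt6-7SA. Among 31 cell wall genes, 16 were higher, 6 lower and 9 uncalled in ck2ts, and 8 higher and 6 lower in spt6-7SA. YPS3, for a surface protease, had 504 and 522 CPM in ck2ts, 106 and 113 CPM in spt6-7SA, and 116 and 123 CPM in WT. SCW4, for a wall glucanase, was opposite, at 1315 and 1382 CPM in ck2ts, 484 and 454 CPM in spt6-7SA, and 866 and 642 CPM in WT.

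Ribosome biogenesis genes fell and general stress genes rose in both mutants, with larger medians in ck2ts. All 60 ribosome biogenesis genes tested fell in both, with medians of -1.47 in ck2ts and -0.66 in spt6-7SA. Of these, 59 were lower in ck2ts than in spt6-7SA, and ERB1, KRE33, ENP2, KRR1 and DIM1 were specific by the rule. ERB1 had 123 and 130.1 CPM in ck2ts, 274 and 267 CPM in spt6-7SA, and 397 and 360.4 CPM in WT, a graded order without overlap. Its change in spt6-7SA was -0.49. The falls of all 5 specific genes also passed in spt6-7SA, so they were smaller there but not absent. Of 48 general stress genes, 45 rose and 3 did not pass in ck2ts, and 40 rose and 1 fell in spt6-7SA, with medians of 2.35 and 1.08. Of this list, 39 were higher in ck2ts than in spt6-7SA, and FMP16, GSY2, HOR7 and DCS2 were specific. GSY2, glycogen synthase, had 229 and 208 CPM in ck2ts, 90.6 and 94.6 CPM in spt6-7SA, and 61.0 and 87.8 CPM in WT. Of 139 cytoplasmic ribosomal protein genes 133 fell in ck2ts and 133 in spt6-7SA, and 71 were lower in ck2ts than in spt6-7SA. The medians of 15 genes for Hsp90 and its cochaperones were 0.23 in ck2ts and 0.28 in spt6-7SA, and those of 14 Hsp70 and Hsp110 genes 0.26 and 0.30. Of 20 genes for RNA polymerase III and its factors, 11 were lower, 4 higher and 5 uncalled in ck2ts, and 9 lower, 3 higher and 8 uncalled in spt6-7SA. The subunit genes RPC34, RPC25 and RPC17 were specific, with log2 fold changes of -1.96, -1.06 and -1.44. The change of RPC34 in spt6-7SA, -0.43, also passed (adjusted p = 0.00972). RPC17 had 9.38 and 11.9 CPM in ck2ts, 24.8 and 22.8 CPM in spt6-7SA, and 29.2 and 28.4 CPM in WT. Of 36 autophagy genes, 28 rose and 1 fell in ck2ts, and 21 rose and 1 fell in spt6-7SA. Of 33 mRNA decay genes, 22 fell and none rose in ck2ts, and 15 fell and 1 rose in spt6-7SA.

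Upstream windows of the same placement are shown for the 2 stress genes and 2 ribosome biogenesis genes with the largest changes in ck2ts. They are chrXV:231856-232155 (minus) for DDR2, chrVII:654234-654533 (plus) for CTT1, chrVII:807757-808056 (minus) for NSR1 and chrXIV:413239-413538 (plus) for DBP2 in R64 (RefSeq). Capitals mark AGGGG or CCCCT, the stress response element, in DDR2 and CTT1. In NSR1 and DBP2 they mark GATGAG or CTCATC, the PAC motif of ribosome biogenesis promoters.

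DDR2 upstream: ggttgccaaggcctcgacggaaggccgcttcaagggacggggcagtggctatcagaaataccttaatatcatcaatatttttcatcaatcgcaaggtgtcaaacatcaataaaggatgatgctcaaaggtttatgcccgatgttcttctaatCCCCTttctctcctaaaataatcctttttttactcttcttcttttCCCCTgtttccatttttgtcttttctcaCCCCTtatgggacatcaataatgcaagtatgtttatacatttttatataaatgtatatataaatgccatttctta

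CTT1 upstream: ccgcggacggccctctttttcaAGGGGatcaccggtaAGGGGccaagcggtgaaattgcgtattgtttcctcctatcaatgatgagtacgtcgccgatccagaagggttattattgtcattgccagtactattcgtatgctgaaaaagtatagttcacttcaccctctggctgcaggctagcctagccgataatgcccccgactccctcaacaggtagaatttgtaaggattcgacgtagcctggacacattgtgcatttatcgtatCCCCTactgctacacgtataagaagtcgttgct

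NSR1 upstream: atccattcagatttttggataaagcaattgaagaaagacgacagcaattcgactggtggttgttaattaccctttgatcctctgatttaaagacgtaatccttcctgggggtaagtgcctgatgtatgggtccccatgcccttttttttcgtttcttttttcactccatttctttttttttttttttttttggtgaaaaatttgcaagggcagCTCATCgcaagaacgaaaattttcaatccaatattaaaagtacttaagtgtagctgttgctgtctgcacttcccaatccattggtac

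DBP2 upstream: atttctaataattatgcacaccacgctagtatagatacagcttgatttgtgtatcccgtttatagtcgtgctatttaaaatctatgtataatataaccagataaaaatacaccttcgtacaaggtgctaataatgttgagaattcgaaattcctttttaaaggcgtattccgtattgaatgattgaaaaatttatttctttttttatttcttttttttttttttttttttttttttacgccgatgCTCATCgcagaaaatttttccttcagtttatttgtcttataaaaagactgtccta

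The stress response element was in 45 of the 48 general stress windows (93.8%) and in 23.6% of all windows, and the PAC motif in 44 of 60 ribosome biogenesis windows (73.3%) and in 18.4% of all windows. Windows of the specific rises held the stress response element in 40 of 105 (38.1%). Matches are descriptions of these letters in these windows.

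**Figure D2:**
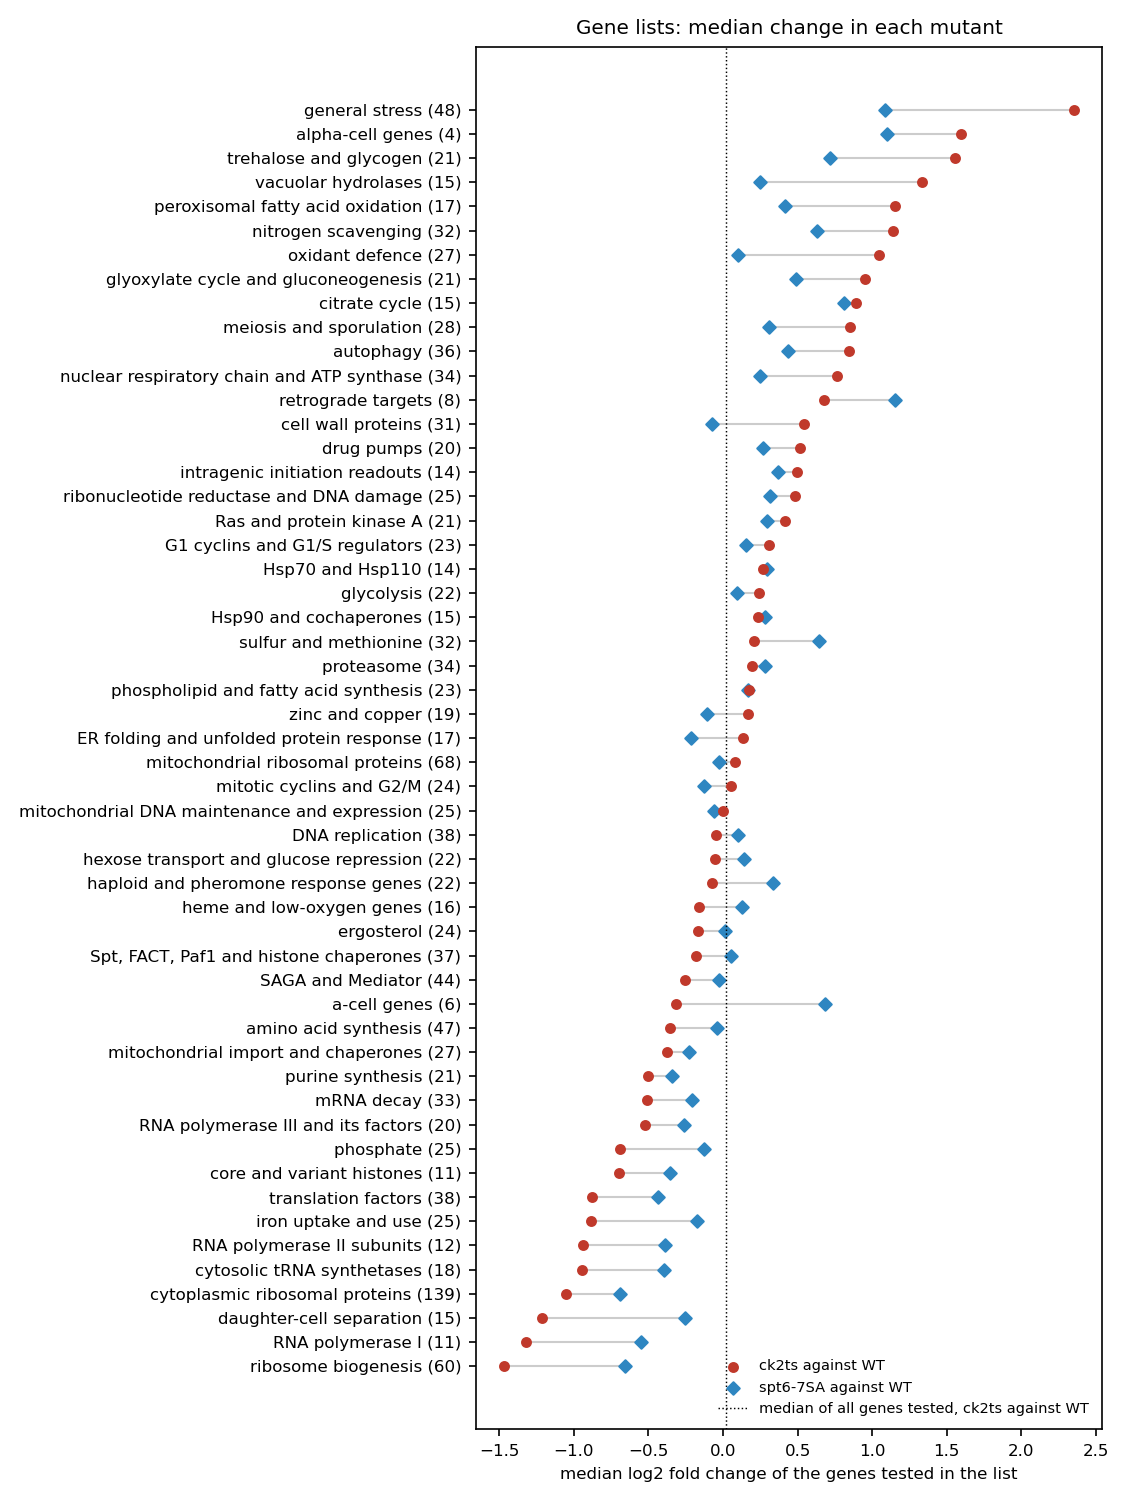
Median log2 fold change of each gene list in ck2ts (circles) and spt6-7SA (diamonds) against the shared WT libraries, with the number of genes tested in parentheses and a dotted line at the median of all genes in ck2ts, 0.02. General stress (2.35 in ck2ts) and ribosome biogenesis (-1.47) lie at the ends, and the a-cell list is on different sides of the line in the mutants.

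Opposite changes included a large rise of an oxidant defence gene and falls of genes for the cell wall (CWP1, above), purines, biotin, acid phosphatase and methionine. TSA2 (chromosome IV, 1365072 to 1365662, minus strand), for a stress-inducible thioredoxin peroxidase, had 236 and 221 CPM in ck2ts, 20.1 and 22.5 CPM in spt6-7SA, and 38.3 and 42.0 CPM in WT. Its log2 fold change was 2.51 in ck2ts and -0.91 in spt6-7SA, and the 3 strains did not overlap. PLN1, for a lipid droplet protein, had 170.0 and 164 CPM in ck2ts, 29.9 and 28.7 CPM in spt6-7SA, and 63.5 and 81.4 CPM in WT. ATR1, a drug and borate efflux pump gene, had 48.2 and 53.8 CPM in ck2ts, 10.1 and 10.1 CPM in spt6-7SA, and 35.6 and 36.8 CPM in WT. The opposite pattern at ATR1 rested mostly on spt6-7SA, which changed by -1.84 against 0.49 in ck2ts. RRI1, for the catalytic subunit of the COP9 signalosome, the D-serine dehydratase gene DSD1, and the manganese transporter gene SMF1 rose by 0.78, 0.81 and 1.17 in ck2ts. HAC1, for the transcription factor of the unfolded protein response, had 1519 and 1609 CPM in ck2ts, 499 and 551 CPM in spt6-7SA, and 959 and 930.5 CPM in WT.

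Downward, IMD2 (chromosome VIII, 554396 to 555967, plus strand), for the inosine monophosphate dehydrogenase of guanine nucleotide synthesis, had 31.8 and 35.8 CPM in ck2ts, 205 and 214 CPM in spt6-7SA, and 48.6 and 54.9 CPM in WT. It fell by 0.61 in ck2ts and rose by 2.02 in spt6-7SA. IMD2 belongs to a family of similar genes that can share reads, of which IMD4 was also opposite and IMD3 fell specifically in ck2ts. BIO2, biotin synthase, had 16.0 and 14.5 CPM in ck2ts, 85.6 and 83.8 CPM in spt6-7SA, and 35.6 and 36.0 CPM in WT, and changed by similar amounts in the mutants, -1.23 and 1.24. MET6, methionine synthase, had 61.1 and 50.3 CPM in ck2ts, 235 and 219 CPM in spt6-7SA, and 73.4 and 92.2 CPM in WT. Of 32 sulfur and methionine genes, 14 were higher, 9 lower and 9 uncalled in ck2ts, and 21 higher and 4 lower in spt6-7SA. MET6, MET17 and MUP1 were opposite, but the fall of MUP1 by 0.27 (adjusted p = 0.0462) lost its call with 5 of the 6 libraries left out in turn. MAN2, MHO1, SSP1 and YGR201C completed the genes named from these classes, with log2 fold changes in ck2ts of -0.54, 1.56, -1.22 and 1.23. The fall of MAN2 lost its call without WT replicate 2 and without ck2ts replicate 2. The number of opposite genes depended on single libraries: with 1 library left out, 50 to 102 were higher and 48 to 105 lower, and each of the 4 WT and spt6-7SA libraries reduced a count by more than 1.5 times when left out.

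**Figure D3:**
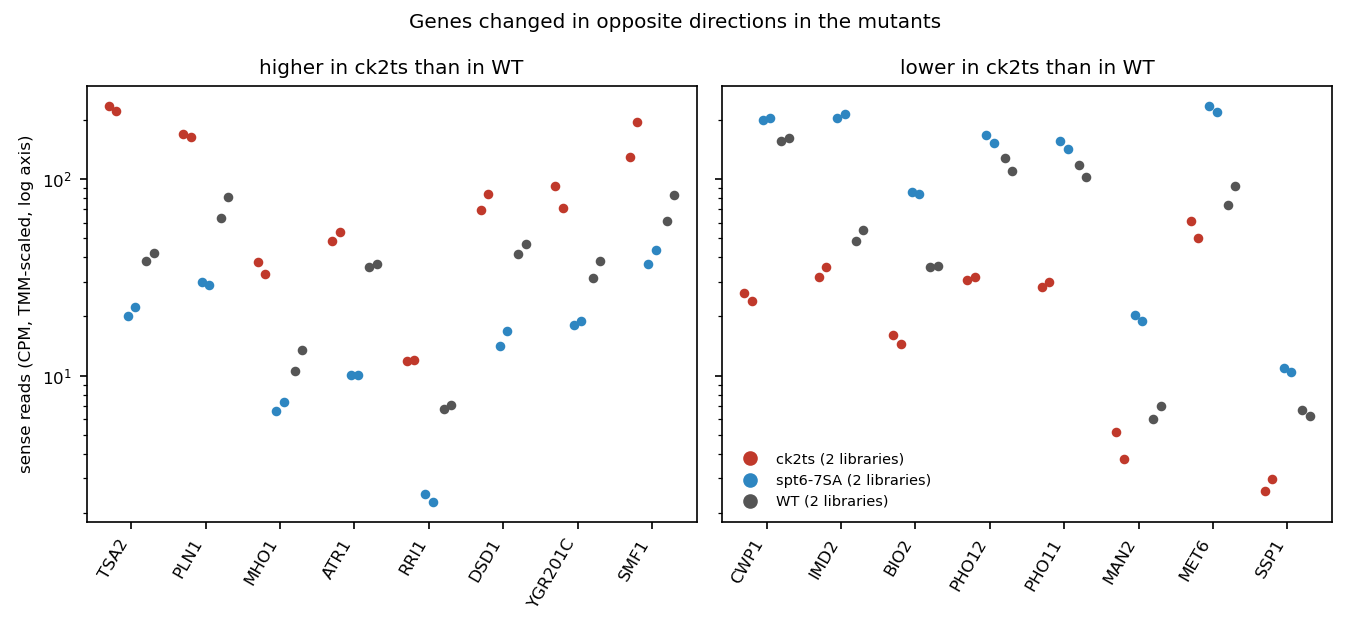
Sense reads of the genes with opposite changes in the mutants, in TMM-scaled CPM on a log axis, with 1 point for each library. Only genes with both ck2ts libraries beyond all the others were drawn, so the ck2ts points stand apart by selection. TSA2 is the gene with the widest gap in the left panel, at 236 and 221 CPM in ck2ts, 20.1 and 22.5 CPM in spt6-7SA, and 38.3 and 42.0 CPM in WT.

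Transcripts of the mitochondrial genome were nearly absent from ck2ts and at WT level in spt6-7SA. Of 55 genes, 32 were tested, of which 30 were lower and 1 higher in ck2ts than in WT, and 29 were lower than in spt6-7SA. The median log2 fold change was -9.54 in ck2ts and 0.01 in spt6-7SA, where 1 gene was lower and 1 higher. Many of these genes overlap and share reads, and 15 had 0 reads in both ck2ts libraries, for which fitted changes have no fixed size. COX3, a cytochrome c oxidase subunit gene, had 6 and 6 reads in ck2ts, 13854 and 12916 in spt6-7SA, and 13439 and 13127 in WT. OLI1, for an ATP synthase subunit, had 15 and 10 reads in ck2ts, 17199 and 14265 in spt6-7SA, and 19536 and 11951 in WT. RPM1, the RNA of mitochondrial RNase P, had 0 reads in both ck2ts libraries, 1122 and 1228 in spt6-7SA, and 1459 and 835 in WT. With 3 reads in the group taken as the floor, it was at least 657-fold lower in ck2ts than in WT. VAR1, for a mitochondrial ribosomal protein, was at 0 reads in both ck2ts libraries too, 53 and 61 in spt6-7SA, and 120 and 66 in WT, at least 53.3-fold lower in ck2ts.

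One stretch kept its reads. COX2 (mitochondrial genome, 73758 to 74513, plus strand) had 19127 and 145998 reads in ck2ts, 13295 and 8298 in spt6-7SA, and 13398 and 9470 in WT. Its change in ck2ts did not pass (log2 fold change 3.18, adjusted p = 0.0680), and its ck2ts libraries differed 9.09-fold in CPM. The adjoining Q0255 had 4428 and 33356 reads in ck2ts, 1928 and 1362 in spt6-7SA, and 2228 and 1642 in WT, and rose just past the threshold (adjusted p = 0.0489). On the near side of COX2 the transfer RNA genes tN(GUU)Q and tM(CAU)Q1 had 5 and 13 and 1 and 14 reads in ck2ts, and on the far side tF(GAA)Q (77431 to 77505) had 0 in both. The share of sense reads in mitochondrial genes other than ribosomal RNA was 0.0362% and 0.319% in ck2ts, 0.322% and 0.285% in spt6-7SA, and 0.231% and 0.266% in WT. Without COX2 and Q0255 it was 0.000217% and 0.000263% in ck2ts, 0.298% and 0.270% in spt6-7SA, and 0.212% and 0.247% in WT. With 2 libraries against 2, the exact two-sided permutation test cannot go below 0.33, which is what the second comparison gave, and the first gave 1. Nuclear genes for the respiratory chain and ATP synthase were mostly higher in the same libraries, with 24 of 34 up and 1 down in ck2ts (median 0.77) against 14 up and 2 down in spt6-7SA (median 0.24). Among them COX6 was specific to ck2ts, with a rise of 1.36.

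**Figure D4:**
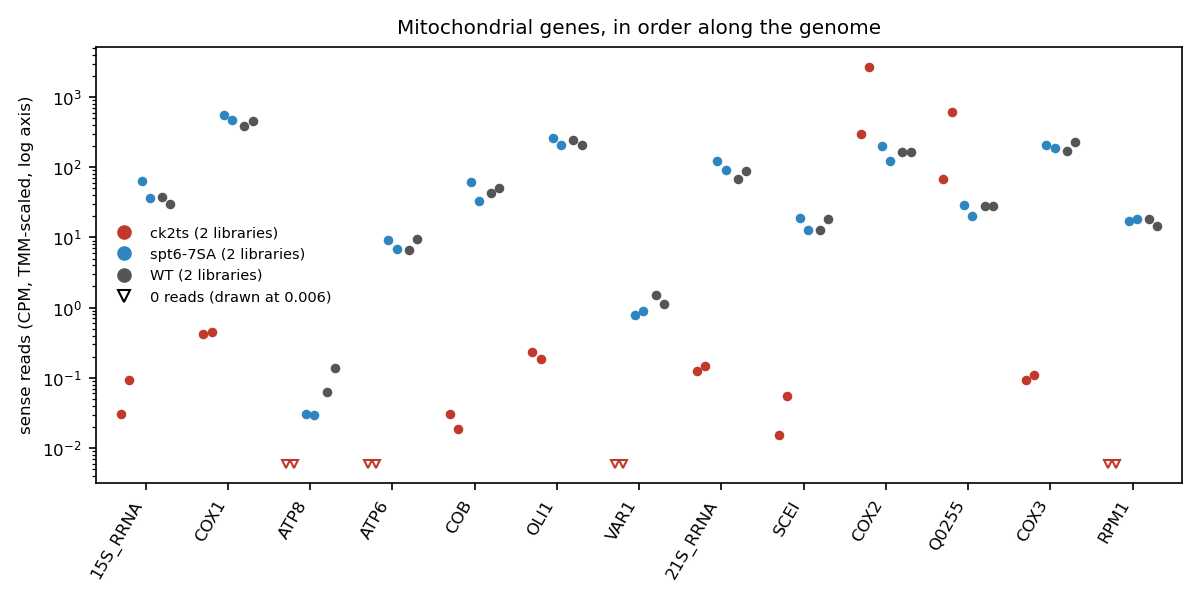
Sense reads of mitochondrial genes in order along the genome, in TMM-scaled CPM on a log axis, with open triangles for 0 reads. COX2 and Q0255 are above the other strains in ck2ts, and the other 11 genes drawn are below them or at 0 reads, as at RPM1.

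Reads from the strand opposite to genes were more frequent in ck2ts than in WT. Antisense CPM are antisense reads scaled by the sense library size and its TMM factor. Over nuclear genes that overlap no annotated gene on the other strand, antisense reads made up 2.13% and 1.91% of reads in ck2ts, 1.75% and 1.82% in spt6-7SA, and 1.40% and 1.498% in WT. The means were 2.02 ± 0.154% in ck2ts, 1.78 ± 0.0525% in spt6-7SA and 1.45 ± 0.0688% in WT (SD, n = 2 each), and the groups did not overlap. The difference of 0.571 percentage points between ck2ts and WT gave p = 0.333 in the exact permutation test, the smallest possible. Among 5490 such genes tested, antisense reads were higher in ck2ts than in WT at 2747 (50.0%) and lower at 656 (11.9%). Against both WT and spt6-7SA they were higher at 1608 genes (29.3%) and lower at 352 (6.41%). These directions rest on scaling by sense reads. Over all genes, 77.8% of antisense calls against WT were upward and the median log2 fold change was 0.62, but after scaling antisense reads by their own totals 55.0% were upward and the median was 0.08.

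Antisense gains did not go with one direction of sense change. Of the 1608 genes, 1606 had a sense test, of which 521 were higher, 558 lower and 527 not called in ck2ts against WT on the sense strand. The antisense-to-sense ratio itself, tested as the interaction of strand and strain, was higher in ck2ts at 2552 of 5420 genes (47.1%) and lower at 782 (14.4%). AFG3 (chromosome V, 189503 to 191788, minus strand), for a mitochondrial protease subunit, had 8.35 and 8.06 antisense CPM in ck2ts, 1.41 and 0.982 in spt6-7SA, and 0.137 and 0.138 in WT. The strains stood in 3 separate steps, and the log2 fold change of ck2ts was 5.88 (SE 0.28, adjusted p = 3.70e-10). AFG3 also rose in spt6-7SA, by 3.10, and had only 11 and 8 antisense reads in the WT libraries. SSF2, for a ribosome assembly factor, had 14.3 and 14.7 in ck2ts, 0.617 and 0.674 in spt6-7SA, and 0.324 and 0.414 in WT, while its sense level fell by 1.19 on the log2 scale. NUP192, a nuclear pore gene, rose by 5.31 in antisense reads, YVC1, for a vacuolar cation channel, by 5.30, and FAT1, a fatty acid transporter gene, by 5.18. These genes also rose in spt6-7SA, by 1.56, 1.66 and 3.15, and each had only 7 to 13 antisense reads per WT library. CKA2 itself had 26.2 and 30.9 antisense CPM in ck2ts, 0.286 and 0.352 in spt6-7SA, and 0.473 and 0.518 in WT. The genotype places a NAT marker at this locus, so transcripts that start in the inserted marker and those that start elsewhere cannot be told apart. YOR062C, 171 bp past CKA2 on the other strand, rose by 1.68 on its own sense strand. The source of the antisense reads at CKA2 was not tested.

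For PHO84, the high-affinity phosphate transporter gene, antisense CPM were 18.9 and 15.5 in ck2ts, 8.29 and 7.42 in spt6-7SA, and 0.984 and 2.42 in WT. Its sense level ran the other way, at 495 and 556 CPM in ck2ts, 879 and 803 CPM in spt6-7SA, and 2985 and 3139 CPM in WT, and the antisense-to-sense ratio rose by 6.002 on the log2 scale (adjusted p = 3.01e-07). NRP1, for an RNA-binding protein, rose by 6.37 in this ratio, and by 3.24 in spt6-7SA. POX1 showed the reverse, with 1.18 and 0.738 antisense CPM in ck2ts, 11.6 and 10.9 in spt6-7SA, and 7.43 and 6.33 in WT, while its sense reads rose in ck2ts as given above. The ratio at POX1 fell by 5.94. GLC3, the glycogen branching enzyme gene, TKL2, a transketolase gene, and POT1, for the last enzyme of peroxisomal fatty acid oxidation, also fell in this ratio, with log2 changes of -4.50, -4.37 and -4.38. Their ratios fell in spt6-7SA too, with log2 changes of -1.06, -1.45 and -2.19. On the sense strand TKL2 and POT1 rose by 3.38 and 3.34 in ck2ts. At GLC3 antisense reads overlapped between ck2ts (5.56 and 3.26) and WT (6.90 and 5.02), and its ratio moved with the sense level. Antisense reads fell most at LEU2, with 0 and 1 reads in ck2ts, and then at POC4, a proteasome assembly factor gene, FLC1, for a flavin carrier, and GSP2, a Ran GTPase gene. POC4 had 0.480 and 0.664 antisense CPM in ck2ts, 3.43 and 4.12 in spt6-7SA, and 7.81 and 7.44 in WT, in 3 separate steps. At FLC1 and GSP2 the antisense log2 changes were -3.41 and -3.07, and on the sense strand POC4 changed by -1.26 and FLC1 by 0.72.

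**Figure D5:**
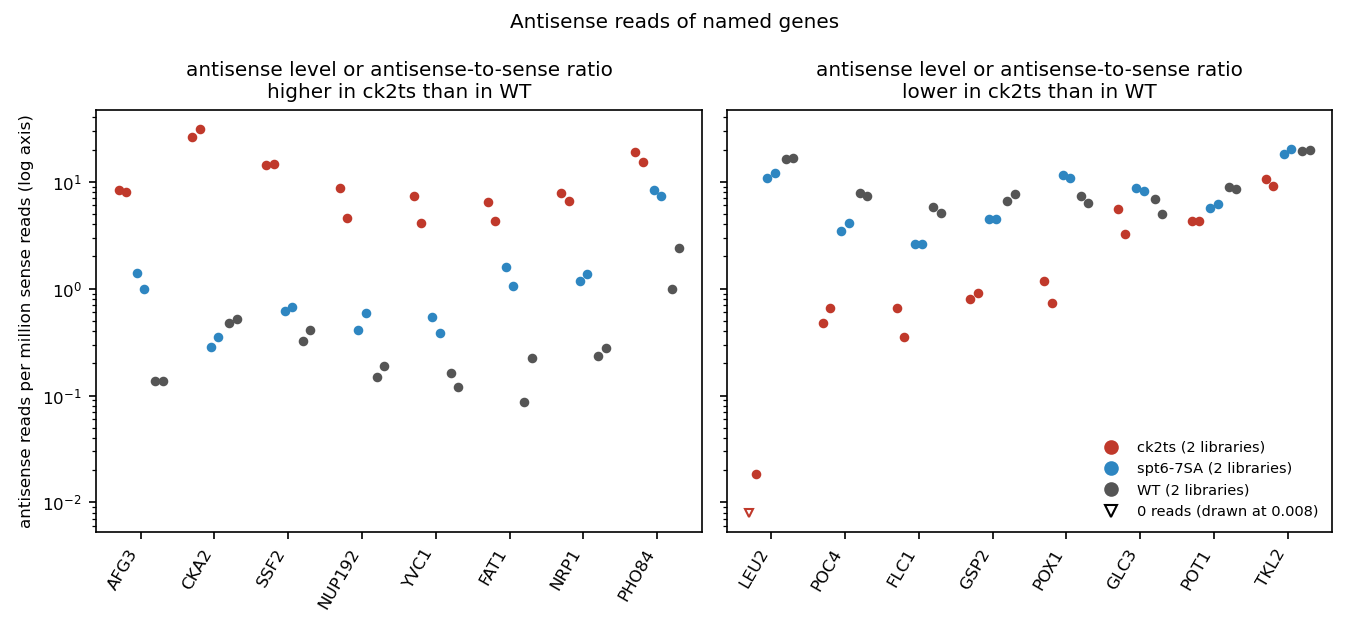
Antisense CPM, scaled by sense reads, on a log axis, of genes with the largest change in ck2ts of the antisense level or of its ratio to the sense level, with 1 point for each library and an open triangle for 0 reads. At AFG3 and POC4 the 3 strains form separate steps in different directions, and at GLC3 ck2ts and WT overlap.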

How the data were processed

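The authors deposited unnormalized counts of reads for each exon, split by strand. Per the labels' protocols, hot-phenol RNA went through Ribo-zero depletion and a stranded kit, with single-end reads of 50 bp. Per the submitters' processing notes, the authors used Trimmomatic, BWA, SAMtools and build R64; versions are not given in the sources used here. Rows were summed to 7126 genes; coordinates matched the R64 reference for 6036 of 6048 genes found by locus tag. A read in overlapping features could count for each, so antisense shares used 6037 genes without overlap on the other strand.

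All 6 libraries entered the edgeR 4.0.16 quasi-likelihood test (robust, R 4.3.3) with TMM scaling, filterByExpr (minimum count 10) and Benjamini-Hochberg adjustment. Antisense counts used sense library sizes and factors. The tests were checked on simulated counts with far fewer changed genes than were called here, so changes this broad were not checked. Shares were compared by exact permutation, two-sided, in scipy 1.17.1. Python 3.11.15 with pandas 2.3.3 and matplotlib 3.10.9 served for tables and figures. Alternatives were DESeq2 1.42.0, other filters and scalings, a block on replicate number, and each library left out in turn.

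Genes were named as the 12 largest specific changes per direction (protein-coding, without construct and mitochondrial genes), the 8 largest opposite changes, up to 4 called members per list, and the largest antisense changes, among genes of at least 10 CPM (5 for antisense) without overlap of ck2ts with the other libraries. List members in a specific class, and ICL1, were chosen after their values were seen. Members and lists were chosen with earlier results of these data known. A motif result for the daughter-cell separation genes is not reported here.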

Additional observations from a re-analysis of the deposited data

How the results depend on the processing

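The counts of genes changed between ck2ts and WT moved little with the setting: 4389 in the edgeR test, 4439 in DESeq2, 4150 with the ck2ts and WT libraries only, and 4264 to 5005 over the alternatives that kept all libraries. With 1 library left out they ran from 3750 to 4147, and against spt6-7SA from 2495 to 3445. Specific genes ran from 110 to 144 higher and from 138 to 166 lower, opposite genes from 50 to 102 and from 48 to 105. A limit of 0.25 in spt6-7SA left 76 and 80 specific genes, and a smaller minimum change in ck2ts gave 338 and 479. The labels do not say that equal replicate numbers mark a shared batch. With the replicate number as a block, opposite genes numbered 172 higher and 197 lower. Same-numbered libraries deviated together (correlations 0.351, 0.294 and 0.395 between groups), a hint from the data.

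Antisense calls with 1 library left out ran from 3438 to 4024 against WT and from 2108 to 3219 against spt6-7SA, and ratio calls from 3326 to 3924. The antisense share of reads, ck2ts minus WT, ran from 0.462 to 0.680 percentage points, and was 0.384 with overlapping genes included. The mitochondrial share of sense reads, ck2ts minus WT, was -0.0709 and ran from -0.212 to 0.0704 with 1 library left out, changing sign without ck2ts replicate 1, and was -0.229 without COX2 and Q0255 and 0.0366 with 1 gene per overlapping stretch, an alternative added after seeing the data; the cause was not tested. Of 3827 values of named genes under alternatives, 3750 kept their call, 77 lost it and 0 reversed, and of 1482 list counts 46 moved by over 1.5 times. Whether depth limits the comparison was not tested, and 2 libraries per group limit every exact test.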

Other observations

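Among signalling genes, TPK2, a catalytic subunit gene of protein kinase A, was specific to ck2ts at 92.8 and 89.8 CPM in ck2ts, 33.8 and 33.6 CPM in spt6-7SA, and 32.5 and 38.2 CPM in WT, and both other strains overlapped. PDI1, for the disulfide isomerase of the endoplasmic reticulum, had 3353 and 3349 CPM in ck2ts, 1289 and 1322 CPM in spt6-7SA, and 1465 and 1352 CPM in WT, a specific rise of 1.25 on the log2 scale. SER3, a serine synthesis gene repressed by transcription through its promoter, rose in ck2ts but far more in spt6-7SA, at 337 and 256 CPM in ck2ts, 1227 and 1182 CPM in spt6-7SA, and 90.4 and 93.4 CPM in WT.

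PRY1 and PRY3, neighbours 561 bp apart on the minus strand that encode related secreted proteins, moved in different directions in ck2ts. PRY1 rose by 3.39 and PRY3, at 33.5 and 26.6 CPM in ck2ts, 83.5 and 52.9 CPM in spt6-7SA, and 86.0 and 76.8 CPM in WT, fell by 1.44 (adjusted p = 0.00136). DSE1, whose sense reads fell, gained antisense reads, at 8.86 and 9.05 antisense CPM in ck2ts, 2.60 and 2.39 in spt6-7SA, and 2.33 and 2.86 in WT, a log2 fold change of 1.79 that spt6-7SA did not share (-0.05). These genes were singled out after their values were seen.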
